A study of Homo sapiens with 6 samples.

Results

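The genes described here encode the signalling pathway of transforming growth factor beta (TGF-beta), activins and bone morphogenetic proteins (BMPs): ligands, latent-ligand binding proteins, receptors, extracellular antagonists, SMAD proteins, intracellular inhibitors and the ID genes that BMP signals induce. They were chosen by name, and all probe sets annotated to 1 of them alone were taken. Of 41 named genes, 40 were matched to 115 probe sets, among 19775 genes and 54613 probe sets in all. The remaining gene had no entry in the annotation used and is not analysed here, and 1 probe set annotated to a member together with another gene was left out.

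RNA came from IGROV1, an established human ovarian carcinoma line, stained with the DNA dye Hoechst 33342 and sorted by flow cytometry. The side population (SP) holds cells that keep little of the dye, and non-SP cells are those outside that gate. Both groups came from untreated cultures of 1 line and passed through the same staining and sort, so both carried that exposure, and what dye retention itself does to RNA cannot be told apart from what else parts the groups. There were 3 SP and 3 non-SP samples with 1 array each. They are labelled as biological replicates, but separate cultures are not stated, so every p-value rests on a spread between samples that may be partly technical. All values are log2 expression; the number of arrays limits their precision, and fewer cells with a transcript cannot be told apart from less RNA per cell.

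As background, ligands of this family bind paired type I and type II serine/threonine kinase receptors. TGF-beta and activin receptors phosphorylate SMAD2 and SMAD3, BMP receptors phosphorylate SMAD1 and SMAD5, and both kinds of SMAD enter the nucleus with SMAD4. In ovarian surface epithelium and its tumours, TGF-beta is known as a growth inhibitor that many carcinomas escape, while activins, inhibins and BMPs are well known regulators in the ovary.

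All 10 epithelial carcinoma markers measured had means from 5.63 to 12.13, above the first quartile of the arrays (3.90 to 3.93). The summed log2 level of these markers was 96.0 to 99.0 on SP arrays and 95.5 to 98.0 on non-SP arrays. Single markers went in opposite directions within that sum. The keratin genes KRT7 and KRT8 differed by 0.79 and -0.71 between SP and non-SP samples, and EPCAM by -0.15. The groups of these markers did not overlap (3 of 10, against 11.9% of all genes). CDH1, the E-cadherin gene, differed by 0.79 with overlapping groups. At an unadjusted p under 0.05 (limma), 2 of 10 were higher in SP samples (KRT7 and CDH1) and 1 lower (KRT8). Of all genes, 6.78% reached that p, and 0 of the 10 markers passed an adjusted p of 0.05. Blood cell markers summed to 15.8 to 16.7 over 4 genes in SP and 15.4 to 16.1 in non-SP samples, where PTPRC and CD3E lay below the first quartile and CD14 and HBB above it. Fibroblast markers summed to 24.7 to 25.6 over 6 genes in SP and 25.2 to 25.9 in non-SP samples, and endothelial markers to 23.1 to 24.3 over 5 genes in SP and 24.3 to 24.6 in non-SP samples. Of these, 3 of 6 fibroblast and 2 of 5 endothelial markers lay below the first quartile, so lying above it does not set the carcinoma markers apart from the others. All samples came from a cultured carcinoma line, so these sums describe signal within that line and are not shares of other cell types. What the marker differences reflect was not tested. The first principal component, with 45.8% of the variance over all genes, parted the arrays into a set A (non-SP replicates 1 and 3 with SP replicate 1) and a set B (non-SP replicate 2 with SP replicates 2 and 3). The sets were read from the values and are not groups of the study. The ACTB 3' minus 5' signal, a measure of RNA or amplification quality, was 2.02 to 2.29 in set A and 2.46 to 2.55 in set B.

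The upstream sequences of the ID genes are shown because ID2 differed most of the 4 between the groups and the groups of the other 3 overlapped. Each run gives the 250 bases before the RefSeq start (assembly GRCh38.p14), 5′ to 3′ on the gene's strand. Capitals mark the 4-base Smad-type motif GTCT or its reverse complement AGAC; the palindrome GGCGCC, known from BMP-responsive elements, would be in capitals too.

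ID1 (chr20:31605039-31605288, plus strand): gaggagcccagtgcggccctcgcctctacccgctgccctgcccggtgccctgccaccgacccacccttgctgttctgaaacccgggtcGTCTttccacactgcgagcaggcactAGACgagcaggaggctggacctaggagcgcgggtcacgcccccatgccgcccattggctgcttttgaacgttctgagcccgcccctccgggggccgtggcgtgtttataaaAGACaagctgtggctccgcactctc
ID2 (chr2:8681806-8682055, plus strand): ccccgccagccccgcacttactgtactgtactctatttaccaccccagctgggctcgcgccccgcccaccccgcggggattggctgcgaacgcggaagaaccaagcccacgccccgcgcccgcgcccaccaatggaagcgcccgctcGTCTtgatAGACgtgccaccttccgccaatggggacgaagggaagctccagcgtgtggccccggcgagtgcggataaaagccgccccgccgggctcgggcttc
ID3 (chr1:23559502-23559751, minus strand): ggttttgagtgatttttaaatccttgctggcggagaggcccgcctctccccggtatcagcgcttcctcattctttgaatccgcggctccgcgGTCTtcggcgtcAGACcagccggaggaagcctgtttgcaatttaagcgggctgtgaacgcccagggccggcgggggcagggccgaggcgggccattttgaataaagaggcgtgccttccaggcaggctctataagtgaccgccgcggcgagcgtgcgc
ID4 (chr6:19837120-19837369, plus strand): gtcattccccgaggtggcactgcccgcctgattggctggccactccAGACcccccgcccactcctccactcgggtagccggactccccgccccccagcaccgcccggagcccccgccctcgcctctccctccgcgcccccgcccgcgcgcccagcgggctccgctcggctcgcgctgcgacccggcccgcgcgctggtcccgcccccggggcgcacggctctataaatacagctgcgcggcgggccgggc

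ID1 held 3 copies of GTCT or AGAC, ID2 2, ID3 2 and ID4 1, and GGCGCC occurred in 0 of the 4 windows. The nearest GTCT and AGAC, which read the motif on opposite strands, stood 4 bases apart in ID2, 8 in ID3 and 22 in ID1. Of 35116 windows of this length upstream of annotated starts, 77.5% held GTCT or AGAC and 16.4% held GGCGCC. Copy numbers and spacings were not counted over all windows, so nothing about the ID2 difference is read from them. A match is a string of letters, not a measured binding site. Sequence outside these windows was not searched, so they do not show whether a BMP-responsive element lies elsewhere near these genes.

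The comparison of SP with non-SP samples asks which pathway genes differ between cells that keep little dye and cells that retain it. No member passed an adjusted p of 0.05 in limma's fit over all 19775 genes: 0 of 40 were called, where the background was 0.00506% of genes (1 gene, not a member). At an unadjusted p under 0.05, 3 of 40 members (7.5%) differed, against 6.78% of all genes. All 3 were lower in SP samples (ID2, TGFBR1 and INHBA), where 3.71% of all genes were. The SP and non-SP values did not overlap for 7 of 40 members (17.5%), against 11.9% of all genes: ID2, TGFBR1, INHBA and BMPR2 were lower and SKIL, FST and SMAD4 higher in all SP samples. Over the 40 members 25 differences lay above 0 and 15 below, with a median of 0.05, beside -0.02 over all genes. These shares lie near the background, and nothing about the members as a set is read from them.

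**Figure D1:**
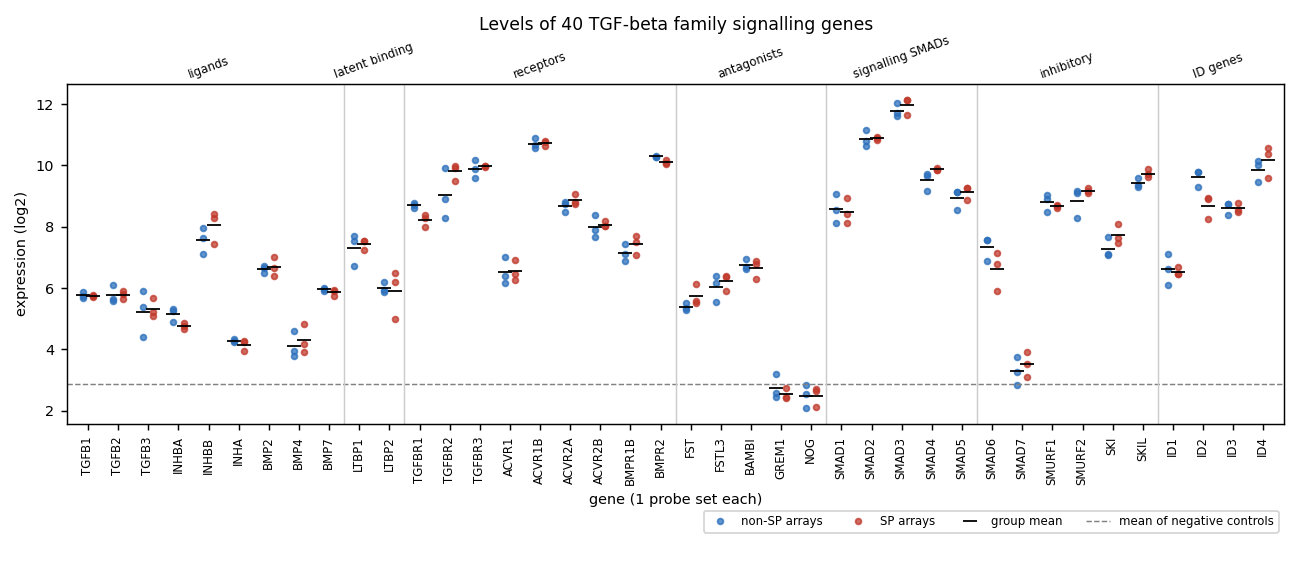
Log2 expression of the 40 measured genes, in order of role, with 1 probe set per gene; each point is 1 array (3 non-SP, 3 SP), black bars are group means and the dashed line is the average negative control signal. ID2 has all 3 SP points below all 3 non-SP points, while GREM1, NOG and SMAD7 lie near the dashed line.

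Among the ID genes, which encode inhibitors that bind basic helix-loop-helix transcription factors and keep them off DNA, ID2 stood lower in SP samples and ID1, ID3 and ID4 overlapped. ID2 had log2 levels of 8.26, 8.89 and 8.93 in SP replicates 1, 2 and 3 and of 9.78, 9.29 and 9.79 in non-SP replicates 1, 2 and 3. Every SP value lay below every non-SP value, and SP replicate 1 was the lowest of all. The difference was -0.93 (SE 0.24), a 1.90-fold lower level with a 95% interval of 1.29 to 2.81 (limma, adjusted p = 0.516). The second ID2 probe set gave 6.65, 7.53 and 7.66 in SP and 8.14, 8.20 and 8.61 in non-SP samples, a difference of -1.04 (SE 0.29). Both probe sets thus placed all SP arrays below all non-SP arrays. The size depended on the array set: within set A ID2 differed by -1.53 and within set B by -0.38. Without SP replicate 1 it was -0.71.

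ID1, a direct BMP target in many cells, had levels of 6.45, 6.45 and 6.69 in SP and 7.10, 6.10 and 6.63 in non-SP samples, and its difference of -0.08 (SE 0.25) turned to 0.17 without non-SP replicate 1. ID3 had 8.76, 8.48 and 8.55 in SP and 8.75, 8.39 and 8.73 in non-SP samples, a difference of -0.03 with a 95% interval of -0.39 to 0.34. The ID3 interval leaves room for changes of that size in either direction. ID4 had 9.58, 10.37 and 10.57 in SP and 9.45, 10.13 and 10.02 in non-SP samples (difference 0.31, SE 0.30), and all 5 of its probe sets differed by 0.06 to 0.34. In both groups the ID4 arrays of set A were lower than those of set B, by 0.40 in non-SP and 0.89 in SP samples. Whether ID2 differed from ID1, ID3 or ID4 in its change was not tested.

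Of the receptors, 9 measured genes, 7 had differences above 0 and 2 below, and the 2 below were those with groups that did not overlap (22.2%, from 2 genes, against 11.9% of all genes). TGFBR1, the type I kinase receptor for TGF-beta, had levels of 8.0, 8.37 and 8.28 in SP and 8.60, 8.78 and 8.72 in non-SP samples. All SP values lay below all non-SP values, with a difference of -0.48 (SE 0.14), or 1.39-fold with a 95% interval of 1.11 to 1.75 (limma, adjusted p = 0.60). The other TGFBR1 probe sets differed by -0.28 (SE 0.25) and -0.20 (SE 0.28), in the same direction with overlapping groups. The difference was -0.66 within array set A and -0.45 within set B.

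TGFBR2, the type II receptor that binds TGF-beta first and recruits TGFBR1, gave the largest difference above 0 among the members and the widest spread within groups (SD 0.61). Its levels were 9.50, 9.93 and 9.98 in SP and 8.30, 9.91 and 8.89 in non-SP samples. Non-SP replicate 2 was as high as the SP samples, while the other 2 non-SP samples lay below all of them. The difference of 0.77 (SE 0.40; limma, adjusted p = 0.809) was 0.90 within array set A and 0.04 within set B, 1.21 without non-SP replicate 2 and 0.40 without non-SP replicate 1. The second TGFBR2 probe set differed by 0.43 (SE 0.18). The co-receptor betaglycan, TGFBR3, which presents ligand to TGFBR2, had 9.97, 9.99 and 9.95 in SP and 9.59, 9.90 and 10.19 in non-SP samples, a difference of 0.07 (95% interval -0.33 to 0.48).

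BMPR2, the type II BMP receptor, had levels of 10.19, 10.04 and 10.07 in SP and 10.29, 10.31 and 10.29 in non-SP samples. The groups did not overlap, by a small margin, and the difference was -0.20 (SE 0.11), or 1.15-fold (limma, adjusted p = 0.828). Of its 6 probe sets, 5 differed downward, by 0.12 to 0.32 in size, and the sixth by 0.09. BMPR1B, a type I BMP receptor, differed by 0.29 (SE 0.22), and ACVR1, the type I receptor known as ALK2, by 0.02 (SE 0.27). The activin type II receptors ACVR2A and ACVR2B differed by 0.20 (SE 0.15) and 0.10 (SE 0.20). All 4 had overlapping groups.

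ACVR1B, the activin type I receptor ALK4, gave different answers on its 6 probe sets. The probe set with the highest signal read 10.62, 10.80 and 10.76 in SP and 10.58, 10.88 and 10.68 in non-SP samples, a difference of 0.01 (95% interval -0.30 to 0.32). Probe set 208218_s_at read 6.82, 6.98 and 6.69 in SP and 7.38, 7.51 and 7.48 in non-SP samples. There the groups stood well apart, with a difference of -0.62 (SE 0.13, 1.54-fold; limma over all probe sets, adjusted p = 0.346), and it was -0.61 and -0.67 within the 2 array sets. Probe sets 208219_at and 208223_s_at differed by -0.58 (SE 0.24) and -0.68 (SE 0.33), and the remaining 2 by -0.07 and, near background, 0.45. Which transcripts each probe set reports was not tested.

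Of the 9 ligand genes, 5 differences lay above 0 and 4 below, and INHBA alone had groups that did not overlap (11.1%, against 11.9% of all genes). INHBA, the beta A subunit of activin A and inhibin A, had levels of 4.66, 4.85 and 4.77 in SP and 5.32, 5.25 and 4.90 in non-SP samples. All SP values were lower, by a difference of -0.39 (SE 0.15), or 1.31-fold with a 95% interval of 1.03 to 1.68 (limma, adjusted p = 0.696), and it was -0.44 within each array set. A second INHBA probe set also had non-overlapping groups but was dimmer than the negative controls on every array, and the third differed by 0.19; the mean of all 3 was -0.18. INHBB, the beta B subunit, had 7.44, 8.42 and 8.29 in SP and 7.64, 7.96 and 7.10 in non-SP samples, a difference of 0.48 (SE 0.32) with overlapping groups. INHA, the alpha subunit that turns an activin beta chain into an inhibin, differed by -0.14 (SE 0.13).

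The TGF-beta genes had overlapping groups on the probe sets with the highest signal. TGFB1 had 5.73, 5.71 and 5.76 in SP and 5.75, 5.86 and 5.67 in non-SP samples, a difference of -0.03 (95% interval -0.29 to 0.24). Its second, dimmer probe set read 3.87, 3.83 and 3.83 in SP and 4.09, 3.90 and 4.13 in non-SP samples, all SP values lower by a small margin (-0.19, SE 0.12). TGFB3 differed by 0.09 (SE 0.38) and TGFB2 by 0.01 (SE 0.17). The 5 TGFB2 probe sets disagreed: 228121_at, above the negative controls on all 6 arrays, read 4.07, 5.48 and 5.19 in SP and 3.68, 4.64 and 3.2 in non-SP samples. The groups overlapped there, with a difference of 1.07 (SE 0.48; limma over all probe sets, adjusted p = 0.713), or 0.63 and 0.69 within the 2 array sets. The BMP genes BMP2, BMP4 and BMP7 differed by 0.06 (SE 0.18), 0.21 (SE 0.30) and -0.10 (SE 0.11). LTBP1 and LTBP2, members of the family of proteins that bind latent TGF-beta to the matrix or resemble those that do, differed by 0.11 (SE 0.27) and -0.11 (SE 0.38). The second LTBP1 probe set, of similar brightness, differed by -0.50 (SE 0.23) with overlapping groups, and the mean of both was -0.19. SP replicate 1 was the lowest LTBP2 sample at 4.99, against 5.88 to 6.49 on the other arrays.

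Among the antagonists, FST, which encodes follistatin, a secreted protein that traps activins, was higher in all SP samples. Its levels were 5.52, 5.59 and 6.12 in SP and 5.29, 5.50 and 5.34 in non-SP samples, a difference of 0.37 (SE 0.18; limma, adjusted p = 0.792). The gap between the groups was narrow, and SP replicate 3 carried much of it: without that sample the difference was 0.18. A second FST probe set differed by 0.69 (SE 0.26) and the third, dim, by -0.05. FSTL3, a relative of follistatin, differed by 0.19 (SE 0.25) and BAMBI, a pseudoreceptor without kinase activity, by -0.09 (SE 0.19). The BMP antagonists gremlin (GREM1) and noggin (NOG) were above the negative controls on 1 and 0 of 6 arrays, so their differences of -0.21 and 0.01 are bounded by background.

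**Figure D2:**
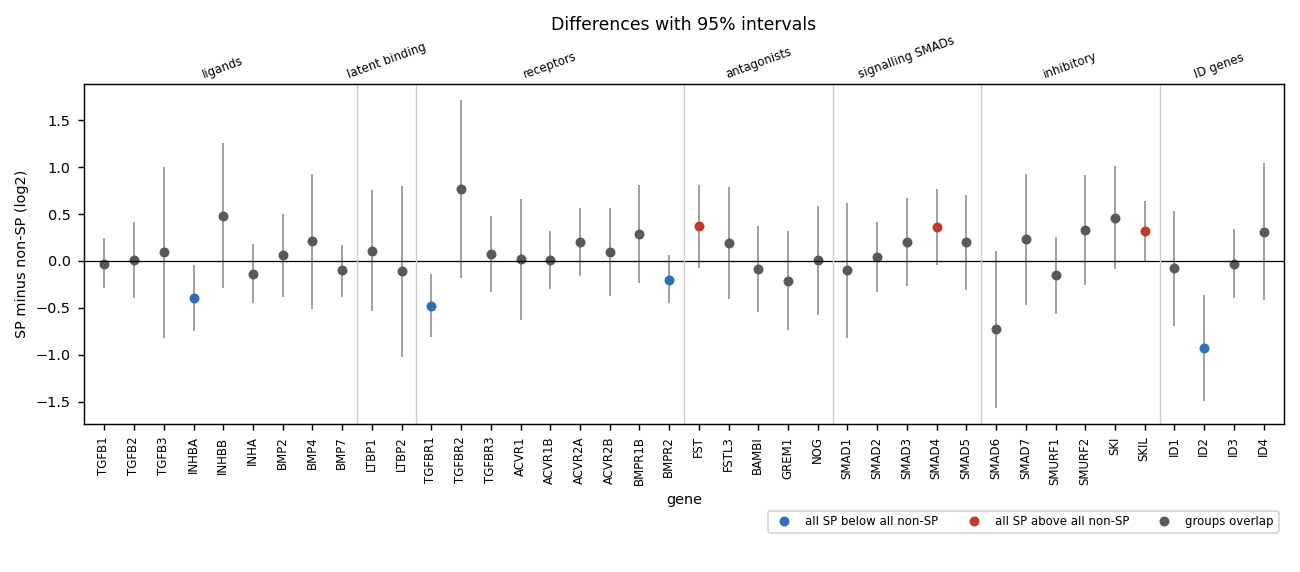
SP minus non-SP differences on the log2 scale for the 40 genes, in order of role, with 95% intervals from limma; blue and red mark genes whose SP and non-SP values do not overlap. The intervals of ID2, TGFBR1 and INHBA lie below 0, and those of all other genes include 0 before adjustment for the number of genes.

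Of the 5 signalling SMADs, 4 had differences above 0 and only SMAD4 had groups that did not overlap (1 of 5, beside 11.9% of all genes). SMAD4, the shared partner of the other SMADs, had levels of 9.91, 9.86 and 9.85 in SP and 9.17, 9.72 and 9.65 in non-SP samples. The SP values were within 0.06 of each other and above every non-SP value, with a difference of 0.36 (SE 0.17), or 1.29-fold (limma, adjusted p = 0.766). Non-SP replicate 1 was the lowest, and without it the difference was 0.19. Of the 5 SMAD4 probe sets, 4 differed by 0.35 to 0.42 and the fifth by -0.06. SMAD1 and SMAD5, the BMP-activated SMADs, differed by -0.10 (SE 0.30) and 0.20 (SE 0.21), and the TGF-beta and activin SMADs SMAD2 and SMAD3 by 0.04 (SE 0.15) and 0.20 (SE 0.20). SMAD5 had 5 of 5 probe sets above 0, yet the gene differed by -0.26 within array set A and 0.72 within set B.

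The intracellular inhibitors include the inhibitory SMADs SMAD6 and SMAD7, the ubiquitin ligases SMURF1 and SMURF2 that mark receptors and SMADs for degradation, and the SMAD co-repressors SKI and SKIL. Over these 6 genes, 4 differences lay above 0 and 2 below, with a median of 0.27. SKIL alone had groups that did not overlap (1 of 6, 16.7%, against 11.9% of all genes). SMAD6 had levels of 7.15, 5.91 and 6.78 in SP and 7.56, 6.89 and 7.58 in non-SP samples. The groups overlapped, and SP replicate 2 was far the lowest, with a difference of -0.73 (SE 0.35; limma, adjusted p = 0.782) that was -0.38 without it. The 3 other SMAD6 probe sets differed by 0.07, 0.01 and -0.30. SMAD7, a feedback inhibitor that TGF-beta induces, was dim, with 3.10, 3.51 and 3.92 in SP and 2.85, 3.74 and 3.27 in non-SP samples.

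SMURF2 differed upward on all 4 of its probe sets. The probe set with the highest signal read 9.25, 9.17 and 9.11 in SP and 8.27, 9.15 and 9.11 in non-SP samples, a difference of 0.33 (SE 0.25) that rested on non-SP replicate 1 and was 0.04 without it. Probe set 227489_at read 8.90, 8.89 and 8.64 in SP and 8.53, 8.05 and 8.03 in non-SP samples, with no overlap and a difference of 0.61 (SE 0.18, 1.53-fold; limma over all probe sets, adjusted p = 0.521). That difference was 0.63 and 0.72 within the 2 array sets. SMURF1 differed by -0.15 (SE 0.17) on the probe set with the highest signal and by 0.11 to 0.63 on the other 4. On 1559426_at (0.63, SE 0.20, limma over all probe sets, adjusted p = 0.545) and 212666_at (0.14, SE 0.13) every SP value lay above every non-SP value. The groups overlapped on the remaining SMURF1 probe sets. The mean of the SMURF1 probe sets was 0.21, so the sign of SMURF1 depended on the probe set used. SKI had 8.08, 7.64 and 7.48 in SP and 7.07, 7.10 and 7.66 in non-SP samples, a difference of 0.46 (SE 0.23) with overlapping groups, and its 3 probe sets differed by 0.31 to 0.46.

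SKIL, which encodes the co-repressor SnoN, gave the widest disagreement between probe sets of any gene measured by several. Probe set 215889_at read 4.92, 5.23 and 3.81 in SP and 8.0, 8.19 and 8.19 in non-SP samples. Its non-SP values lay within 0.20 of each other and every SP value lay more than 2 log2 units lower. The difference was -3.47 (SE 0.36), an 11.1-fold lower signal with a 95% interval of 6.10 to 20.1, and all 6 arrays were above the negative controls. In limma's fit over all 54613 probe sets its adjusted p was 0.122, so it did not pass. The difference was -3.17 within array set A and -3.67 within set B.

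The probe set with the highest signal, used for the gene, went the other way: 206675_s_at read 9.88, 9.71 and 9.61 in SP and 9.58, 9.35 and 9.31 in non-SP samples. These groups did not overlap either, by 0.03, with a difference of 0.32 (SE 0.13, 1.25-fold; limma over genes, adjusted p = 0.733). The other 3 SKIL probe sets differed by 0.11 (SE 0.19), -0.20 (SE 0.14) and -0.52 (SE 0.28). The range from -3.47 to 0.32 spans 3.79 log2 units, and of 10523 genes with more than 1 probe set SKIL alone reached it. With the 5 probe sets averaged, the difference of SKIL was -0.75. Which SKIL transcript, strand or sequence 215889_at reports was not tested.

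**Figure D3:**
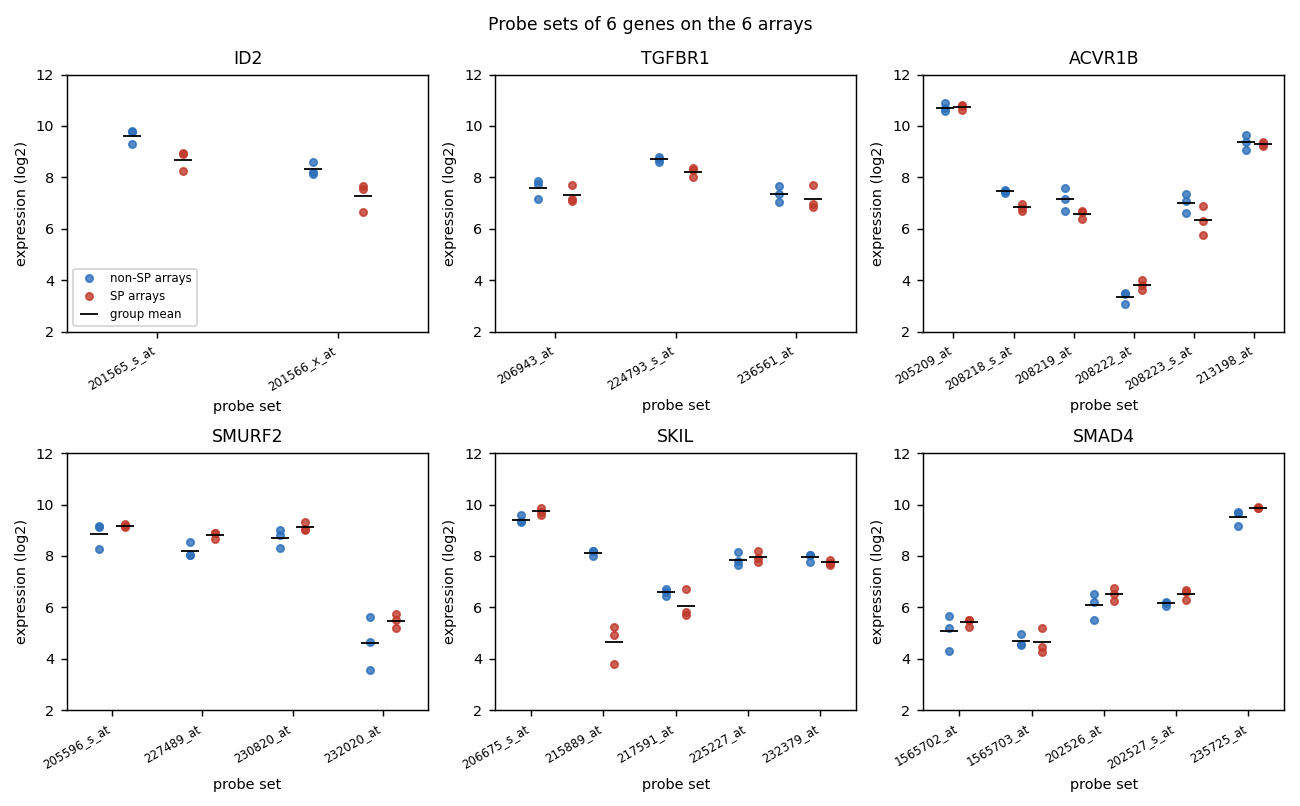
Log2 signal of every probe set of ID2, TGFBR1, ACVR1B, SMURF2, SKIL and SMAD4 on each array (3 non-SP in blue, 3 SP in red), with group means as black bars. SKIL probe set 215889_at reads 8.13 on average in non-SP and 4.66 in SP samples, while the other 4 SKIL probe sets stay within 0.52 log2 units of no difference.

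Probe sets of a member disagreed in sign for 17 of the 30 members with several, and had 1 sign for 13. Over the 115 probe sets, 0 passed an adjusted p of 0.05 (background 0.00183%), 13 (11.3%) had an unadjusted p under 0.05, against 7.31% of all probe sets, and 20 (17.4%) had groups that did not overlap, against 12.5%. Probe sets of 1 gene share its transcripts and are not independent.

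**Figure D4:**
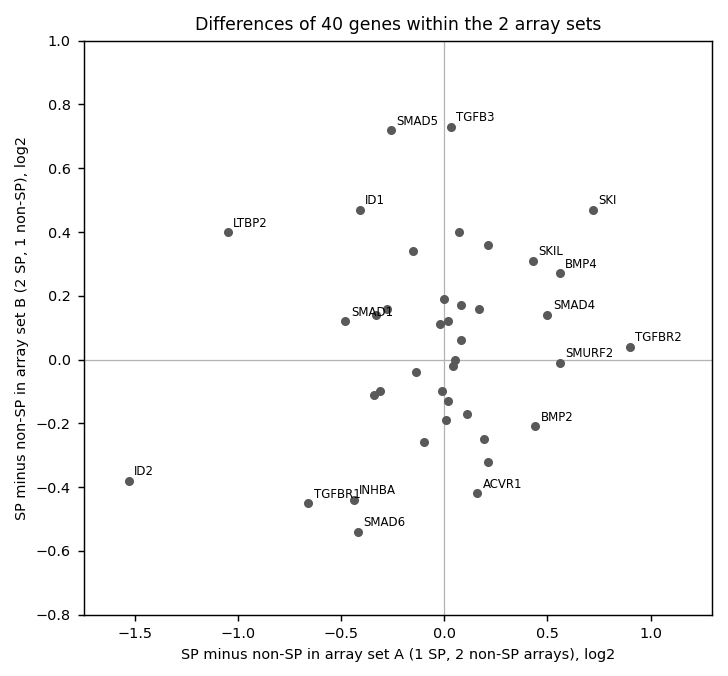
SP minus non-SP differences (log2) of the 40 genes within array set A (1 SP and 2 non-SP arrays, horizontal) and within array set B (2 SP and 1 non-SP, vertical), 1 point per gene, with genes beyond 0.4 named. Of the named genes, ID2, TGFBR1, INHBA and SMAD6 lie below 0 in both sets and SKI, SKIL, BMP4 and SMAD4 above 0 in both. TGFBR2 (0.90 in set A, 0.04 in set B) and TGFB3 (0.03 and 0.73) also lie above 0 in both, each near 0 in 1 set. For ID2, TGFBR1, INHBA, SKIL and SMAD4, whose groups did not overlap, the sign in each set was fixed by that.

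Within the 2 array sets, which share no array, 21 of 40 members had differences of 1 sign in both. For genes and probe sets with groups that did not overlap, the sign within each set was fixed by that, and only the size could vary. For 11 members the differences within the sets lay over 0.5 log2 units apart: TGFB2, TGFB3, BMP2, LTBP2, TGFBR2, ACVR1, SMAD1, SMAD5, SMURF2, ID1 and ID2. With the array set as a block, ID2 differed by -0.95 and TGFBR1 by -0.55 (limma, adjusted p for all members above 0.05). The part of RNA quality in these differences was not tested beyond these values and the fit with the ACTB signal as a covariate, in which ID2 differed by -0.94 and TGFBR1 by -0.51.

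Other genes of the pathway, from lists of ligands, receptors, extracellular proteins, intracellular regulators and targets, gave 0 calls over all genes. The counts that follow are at an unadjusted p under 0.05, which 6.78% of all genes reached (3.71% lower in SP samples); the shares of the 6 lists were 6.67% to 22.2%, each from 1 to 3 genes. Of 19 other ligands 3 (15.8%) were lower and 0 higher in SP samples: GDF9 (-0.82, SE 0.24), BMP5 (-0.37, SE 0.11; near background) and BMP6 (-0.41, SE 0.14, but -0.07 with the mean of its probe sets). Of 9 other receptors 2 (22.2%) were lower and 0 higher: ACVRL1, the endothelial-type receptor ALK1 (-0.52, SE 0.16), and its co-receptor ENG (-0.31, SE 0.12). Of the endothelial markers, 4 of 5 lay below 0, with a median of -0.18, where 54.8% of all genes lay below 0. VWF (-0.29) and KDR (-0.18, below the first quartile) had groups that did not overlap (2 of 5, against 11.9% of all genes). In limma's fit 0 of the 5 had an unadjusted p under 0.05. Whether ACVRL1 and ENG vary together with these markers within the line was not tested. Of 20 other extracellular proteins 2 (10.0%) were higher and 0 lower. FBN1, the microfibril protein fibrillin-1 that anchors latent TGF-beta complexes, had 8.35, 8.39 and 8.57 in SP and 7.73, 7.83 and 7.53 in non-SP samples (0.73, SE 0.13; limma, adjusted p = 0.294). ITGB8, an integrin subunit that activates latent TGF-beta, had 7.57, 8.21 and 7.58 in SP and 6.18, 7.44 and 6.30 in non-SP samples (1.15, SE 0.37). For both genes every SP value lay above every non-SP value. THBS1, another activator of latent TGF-beta, had 6.75, 8.49 and 8.69 in SP and 5.70, 7.75 and 4.93 in non-SP samples (1.85, SE 0.82), and its groups overlapped. The THBS1 difference was 0.88 with its probe sets averaged, 1.13 with the array set as a block, 2.63 with array weights, and 1.25 to 2.66 with 1 sample left out.

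Of 15 other intracellular regulators 1 (6.67%) was lower and 0 higher, FOXH1, a SMAD2 partner (-0.67, SE 0.22). LEMD3, which restrains SMAD signalling, differed by 0.56 (SE 0.25) and the co-repressor TGIF1 by 0.27 (SE 0.15), with overlapping groups; LEMD3 was at 0.34 without non-SP replicate 1, and TGIF1 at 0.41 with probe sets averaged and 0.18 without SP replicate 2. Of 19 TGF-beta targets (10.5% in either direction) 1 was higher, the cell cycle inhibitor CDKN1A (0.60, SE 0.20), and 1 lower, ANGPTL4 (-0.44, SE 0.14), with TGFBI at -0.75 (SE 0.32; -0.46 without non-SP replicate 2) and overlapping groups. Of 11 BMP targets 1 was higher and 1 lower (18.2%). MSX2, a homeobox gene, had 8.69, 8.54 and 8.35 in SP and 7.73, 7.15 and 7.81 in non-SP samples (0.96, SE 0.21; limma, adjusted p = 0.425). GATA2, a zinc finger factor, had 8.57, 9.38 and 9.11 in SP and 9.68, 9.86 and 9.79 in non-SP samples (-0.76, SE 0.22; limma, adjusted p = 0.597; -0.27 with the mean of its probe sets). MSX2 and GATA2, like ID2, had groups that did not overlap, but in opposite directions. With probe sets averaged, MSX2 differed by 0.60, FOXH1 by -0.37, ENG by -0.17 and BMP5 by -0.16. The medians of these 6 lists lay between -0.05 and 0.08.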

How the data were processed

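RNA of 3 SP and 3 non-SP samples was extracted with a small-sample kit and amplified by a whole-transcriptome method for picogram amounts and labelled with biotin, per the labels' protocols. The deposited log2 values were made by the authors with R 2.8.1, affy and RMA, per the submitters' processing notes; RMA sets all arrays to 1 shared distribution, which hides global changes and compresses differences near background. Further options were not given in the sources used here.

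In all, the table held 54675 probe sets, 62 of them controls that were left out. Of the others, 41091 carried 1 symbol in the platform annotation, and 41037 of these were matched to RefSeq (GRCh38.p14) by gene identifier. Each gene was represented by its brightest probe set (mean over the 6 samples), with no filter on dim genes. Differences are SP minus non-SP, fitted with limma 3.58.1 (lmFit, eBayes) in R 4.3.3, two-sided, with Benjamini-Hochberg adjustment over all 19775 genes, or over all 54613 probe sets where stated, called at 0.05, with 95% intervals. "Negative controls" are the mean of the tryptophan spike probe sets that carried no signal (2.82 to 2.96 per array).

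Members, lists, tests and alternatives were chosen with earlier results of these data known. All members were described, in full where the unadjusted p was under 0.05 or the groups did not overlap, and up to 3 genes by p of each other list; single probe sets were picked after seeing values. The fit was also run on simulated data with independent noise between arrays. Those data held no array sets, so that run does not show how the fit behaves with them. Python 3.11.15, pandas 2.3.3 and matplotlib 3.10.9 were used.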

Additional observations from a re-analysis of the deposited data

How the results depend on the processing

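No member was called under any of the 16 alternatives, nor a member probe set in 12 fits of all probe sets. The smallest adjusted p in limma was 0.129 for a member fitted as 1 gene. For a member probe set it was 0.122 in the main fit of all probe sets. The count of genes called, 1, was 0 with probe sets averaged per gene and with only genes above the median level, 12 with array weights, 3 with the ACTB signal as a covariate, 5 with the array set as a block, and 1 to 2 with 1 sample left out. The members' median, 0.05, ranged from 0.01 to 0.08, within its spread between replicates (0.07). Of the 7 members with groups that did not overlap, 6 kept their sign in all alternatives run for them. The exception was SKIL, at -0.75 with the mean of its probe sets, which averages in 215889_at. Because the groups of these 7 members did not overlap, leaving out 1 sample, array weights or a block could not turn their sign. The kept signs in those fits are therefore no test of stability. Of all 40 members, 22 turned sign at least once. SKIL probe set 215889_at, whose alternatives were added after seeing the data, stayed between -3.76 and -3.05 over 11 alternatives (adjusted p 0.0908 to 0.405).

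With the replicate number as a block, 3 genes and 0 members were called. Deviations of same-numbered samples correlated at 0.449, 0.381 and -0.212 for replicates 1, 2 and 3. Both samples numbered 1 lay in array set A and both numbered 2 in set B, while those numbered 3 lay in different sets. These values therefore cannot tell pairing from the array sets. Whether the numbers pair the samples is not known, and the main fit took them as unpaired. GREM1, NOG and SMAD7 lay too near background for a difference to be measured.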
